A study of Mus musculus with 4 samples.

Results

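The genes described here were the SR proteins, the hnRNP proteins and the DEAD-box RNA helicases *Ddx5* and *Ddx17*, measured in medullary thymic epithelial cells (mTECs). They were chosen by name, as every symbol of the count table made of Srsf and a number or starting with Hnrnp, plus the 2 helicases. This gave 31 of 23337 gene symbols, namely 11 SR proteins, 18 hnRNP proteins and the 2 helicases. The names took no account of differences between the groups, but *Ddx5* was known to be among the most abundant genes when the helicases were added, so its high level is a description. All 31 passed the filter on low counts. *Hnrpdl* and *Hnrpll*, the older symbols under which the table lists the genes now called *Hnrnpdl* and *Hnrnpll*, did not match the names and are given apart.

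SR proteins bind short enhancer elements in exons through RNA recognition motifs and recruit the spliceosome through domains rich in arginine and serine. Many hnRNP proteins coat nascent transcripts and often act against SR proteins at the same exons, and *Ddx5* and *Ddx17* encode paralogous helicases that remodel RNA structure in splicing and transcription. mTECs are known for transcribing tissue-restricted genes, with the help of *Aire*, and for a wide range of splice forms, which gives the levels of these regulators their interest in this cell type.

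RNA was sequenced from mTECs of 4-week-old C57BL/6 mice, with 2 wild-type libraries (WT 1 and WT 2) and 2 from mice labelled Sirt6-/- (*Sirt6* cKO 1 and 2). *Sirt6* encodes a nuclear NAD-dependent deacetylase, and the comparison asked what its loss from thymic epithelium does to mTECs. In the cKO mice a Foxn1-Cre transgene recombines loxP-flanked *Sirt6* alleles in thymic epithelium, in cortical and medullary cells alike, and the wild-type mice were littermates or of matched age. Cells were sorted as CD45-, EpCAM+, UEA-1+ and Ly51-, and the study describes the 2 samples of a group as independent and run in parallel. How many mice went into each is not given in the sources used here, and p-values measure the spread between these samples.

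The counts summed to between 61102704 and 65907745 per library, so counting error was small beside the spread between libraries for all but the lowest members. *Sirt6* itself was counted 622 times in WT 1, 755 times in WT 2, 882 times in cKO 1 and 835 times in cKO 2, so its level was not lower under the cKO label (log2 fold change 0.37, SE 0.32, edgeR unadjusted p = 0.295). Counts over the whole gene include exons outside a floxed part, so this level does not check the deletion. The study made its own check of the deletion by western blot and quantitative PCR, which is not analysed here, and the groups are named by their labels throughout. TPM is a level per transcript length, scaled so that each library sums to 1000000. The summed TPM of 7 thymic epithelial markers ran from 3717 to 4909, with no marker at 0 and 4 of the 7 higher in cKO at an unadjusted p under 0.05. The sum of 7 measured macrophage and dendritic cell markers, mostly *Lyz2*, was 9753 and 6081 TPM in WT 1 and WT 2 against 3754 and 4057 TPM in cKO 1 and 2, although the sort selected CD45- cells, and 3 of the 7 were lower at an unadjusted p under 0.05. That of 9 thymocyte markers ran from 679 TPM in cKO 2 to 1247 TPM in WT 1. In bulk RNA, fewer cells of a type and less RNA per cell cannot be told apart.

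The 31 genes differed widely in level, and a few of them made up most of the splicing factor RNA. Together they held between 1.10% and 1.39% of all TPM in a library. *Ddx5* was the most abundant, with 3717 and 3568 TPM in WT 1 and WT 2 and 3933 and 4350 TPM in cKO 1 and 2, which placed it 14th among all genes by mean TPM. *Hnrnpk*, which binds C-rich RNA and DNA, followed at a mean of 2591 TPM (27th of all genes), and *Srsf5* at 1349 TPM (65th). These were the 3 members over 1000 TPM, and together they took between 59.1% and 64.9% of the members' TPM in each library. *Hnrnpa2b1*, which encodes 2 abundant nuclear RNA-binding isoforms, had a mean of 973 TPM and *Hnrnpf*, which binds G-tracts, 705 TPM. Their ranges over libraries were 782 to 1273 TPM and 565 to 846 TPM, and *Hnrnpa2b1* was above *Hnrnpf* within each of the 4 libraries.

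In the middle of the range, 15 members had mean levels over 100 TPM. Besides the 5 leaders they were *Srsf7* (464 TPM), *Hnrnpm* (436 TPM), *Srsf6* (311 TPM), *Srsf2* (310 TPM), *Hnrnpu* (235 TPM), *Hnrnpc* (218 TPM), *Srsf10* (192 TPM), *Hnrnph1* (159 TPM), *Srsf3* (120 TPM) and *Hnrnpr* (119 TPM). From 10 to 100 TPM lay 11 more: *Srsf11* (97.6 TPM), *Srsf4* (91.2 TPM), *Hnrnph2* (86.3 TPM), *Hnrnpa1* (81.1 TPM), *Hnrnph3* (69.5 TPM), *Ddx17* (66.0 TPM), *Hnrnpa3* (39.4 TPM), *Hnrnpul1* (24.1 TPM), *Hnrnpab* (15.3 TPM), *Srsf9* (11.6 TPM) and *Hnrnpa0* (11.4 TPM). The 5 under 10 TPM were *Srsf1* (9.36 TPM), *Hnrnpd* (6.74 TPM), *Hnrnpl* (6.33 TPM), *Hnrnpul2* (6.06 TPM) and *Srsf12* (3.80 TPM). Thus *Srsf1*, the founding SR protein, and *Hnrnpa1*, its classical antagonist in the choice of splice sites, were both below the middle of the list, while *Srsf5* and *Hnrnpk* led their families. Levels of members that share sequence with other genes are uncertain where the counting could split reads. More than 10% of the 50-base words of 14 members, searched on both strands, occur in transcripts of other genes. The share was 46.4% for *Hnrnpa1* and 67.3% for *Hnrnpf*. Among the most abundant members it was 37.8% for *Hnrnpk*, 27.8% for *Srsf5* and 22.7% for *Ddx5*. Such words include those of genes that overlap a member at its own place. The 65.4% for *Srsf4* all lay in *Gm12992*, which overlaps it on the other strand by 1532 exonic bases. The 28.8% for *Hnrnpm* lay in *March2*, which overlaps it on the same strand by 1169 exonic bases.

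**Figure D1:**
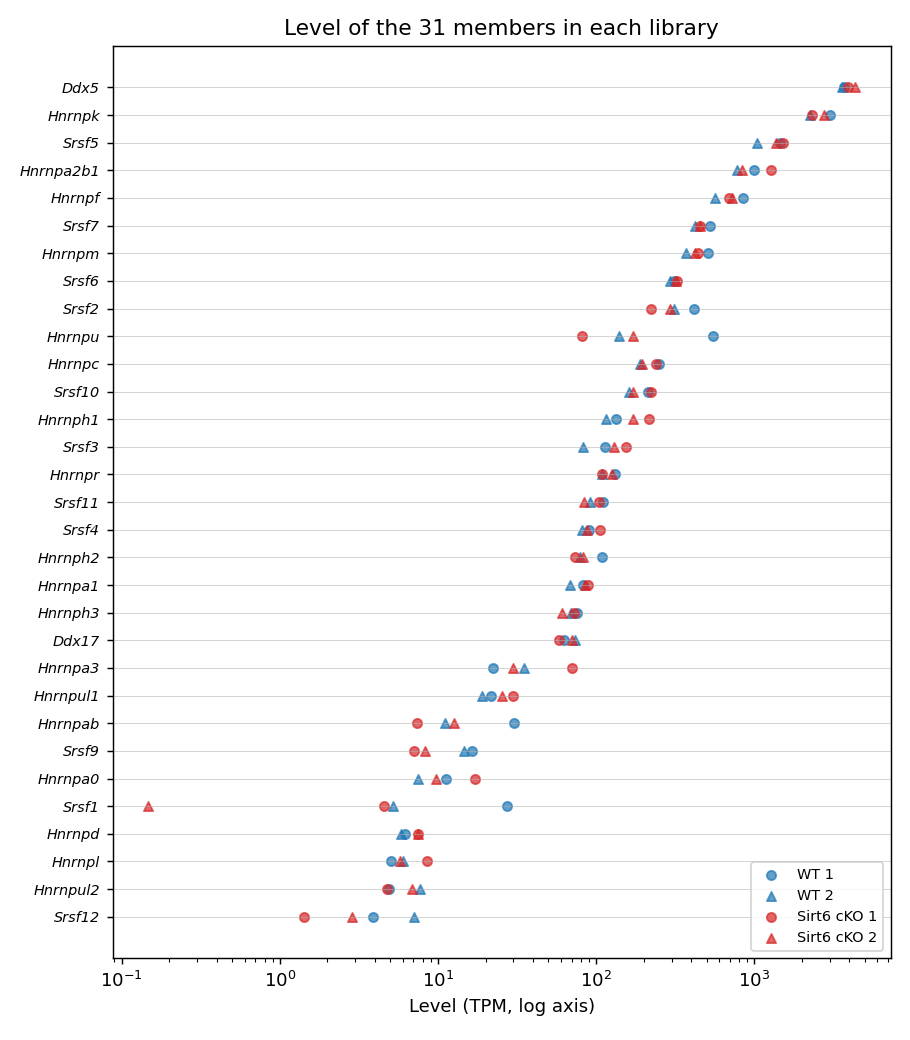
TPM of the 31 splicing factor genes (vertical axis, ordered by mean) in each of the 4 libraries (horizontal log axis); circles and triangles are replicates 1 and 2, blue is WT and red is *Sirt6* cKO. Points of most genes lie close together from *Ddx5* (mean 3892 TPM) down to *Srsf12* (mean 3.80 TPM), and *Srsf1* and *Hnrnpu* are spread most widely.

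As a group, the splicing factors differed less between the labelled genotypes than between the 2 WT libraries. Their summed level was 13868 and 10971 TPM in WT 1 and WT 2 and 12871 and 13091 TPM in cKO 1 and 2, so that the cKO values lay between the WT values. The median log2 fold change (cKO over WT) of the 31 members was -0.0041, with 14 above 0 and 17 below, beside -0.0047 over the 18547 genes tested, with 9204 above and 9343 below. The median for the 11 SR proteins was -0.04 (5 above 0), and that for the 18 hnRNP proteins -0.0026 (8 above 0). The absolute log2 fold change was under 0.25 in 16 members (51.6%), against 34.6% of all genes tested, and over 1 in 5 members (16.1%), against 17.2%. Those 5, *Srsf1*, *Hnrnpu*, *Srsf12*, *Hnrnpab* and *Srsf9*, all had fold changes below 0. In *Srsf1*, *Srsf12* and *Srsf9* both cKO libraries lay below both WT libraries, while in *Hnrnpu* and *Hnrnpab* the groups overlapped. All genes tested were not matched to the members in level.

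With Benjamini-Hochberg adjustment over all genes, none of the members passed 0.05 in the quasi-likelihood test of edgeR, and 0 passed with DESeq2. Over all genes tested edgeR called 1, or 0.00539%, and DESeq2 called 354 of the 20997 it tested. At an unadjusted p under 0.05, 1 member of 31 (3.23%) was higher in cKO, *Hnrnph1*, where 5.27% of all genes were. No member was lower at that p in edgeR, where 3.32% of all genes were, while DESeq2 gave 2 higher (*Hnrnph1* and *Srsf3*) and 2 lower (*Hnrnpu* and *Srsf9*), or 6.45% each way, beside 5.80% and 4.38% of the genes it tested. The balance of higher and lower genes over the whole table rested on the scaling: 61.4% of the 1592 genes at an unadjusted p under 0.05 were higher with TMM normalization, 48.4% under upper quartile scaling and 46.2% under scaling by library size. The normalized counts of the groups did not overlap in 11 members (35.5%), beside 41.9% of all genes tested. Of these, 7 were higher in both cKO libraries (*Ddx5*, *Hnrnpa1*, *Hnrnpd*, *Hnrnph1*, *Hnrnpul1*, *Srsf3* and *Srsf6*) and 4 lower (*Srsf1*, *Srsf2*, *Srsf9* and *Srsf12*). An exact two-sided permutation test of 2 libraries against 2 cannot go below p = 0.333.

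**Figure D2:**
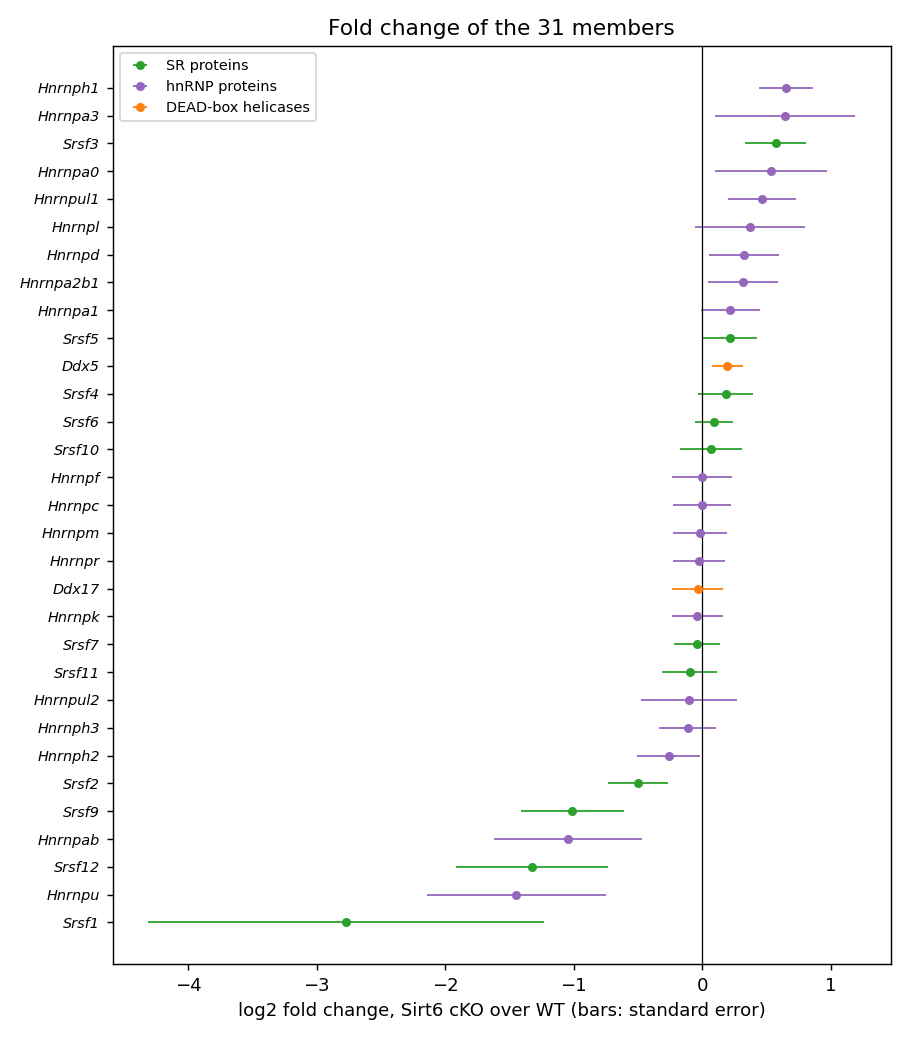
log2 fold change of each of the 31 genes in cKO over WT libraries (horizontal axis, points) with its standard error (bars), ordered by value and coloured by family. Most points lie near 0, the highest is *Hnrnph1* at 0.65, and the wide bars of *Srsf1* (SE 1.54) and *Hnrnpu* (SE 0.70) reflect libraries of one group that differ.

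Among the SR proteins, *Srsf3*, the smallest of the family, a regulator of its own splicing and of mRNA export, had 150 and 105 CPM (counts scaled to library size with TMM factors, per 1000000) in WT 1 and WT 2 and 206 and 173 CPM in cKO 1 and 2. Both cKO libraries lay above both WT libraries, with means of 190 ± 23.3 against 128 ± 31.5 (SD, n = 2). The log2 fold change was 0.57 with an SE of 0.24 (edgeR's quasi-likelihood test, unadjusted p = 0.0583, Benjamini-Hochberg adjusted p = 0.600). In its transcripts 31.5% of 50-base words are shared with other genes.

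*Srsf1* had the largest fold change of the 31 and the largest spread. Its counts were 4306 in WT 1, 782 in WT 2, 669 in cKO 1 and 23 in cKO 2, or 65.8, 12.3, 11.1 and 0.359 CPM. The groups did not overlap, but WT 2 and cKO 1 were close and each group was spread widely, 5.35-fold within WT and 30.9-fold within cKO. The log2 fold change of -2.77 had an SE of 1.54 (edgeR's quasi-likelihood test, unadjusted p = 0.128, Benjamini-Hochberg adjusted p = 0.680). It was -1.13 without WT 1 and -6.76 without cKO 1. WT 1, the library with the high *Srsf1* value, also had the highest sums of macrophage and thymocyte markers given above, whose part in the result was not tested.

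The promoter sequences of *Srsf3* and *Srsf1* are shown because these SR genes had the highest and the lowest fold change of the family and each has 1 listed start. The windows run from 250 bases before to 50 bases after the RefSeq start (GRCm38.p6, plus strand), chr17:29032410-29032709 for *Srsf3* and chr11:88047123-88047422 for *Srsf1*. Capitals mark the CCAAT box, the GC-box hexamer GGGCGG and the TATA-box hexamer TATAAA, each searched on both strands.
Srsf3: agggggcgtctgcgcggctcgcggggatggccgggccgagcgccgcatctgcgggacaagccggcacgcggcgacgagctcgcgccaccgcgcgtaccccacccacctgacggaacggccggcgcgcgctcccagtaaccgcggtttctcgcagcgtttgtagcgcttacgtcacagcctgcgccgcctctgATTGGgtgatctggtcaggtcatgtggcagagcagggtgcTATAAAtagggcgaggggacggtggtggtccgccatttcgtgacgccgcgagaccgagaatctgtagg
Srsf1: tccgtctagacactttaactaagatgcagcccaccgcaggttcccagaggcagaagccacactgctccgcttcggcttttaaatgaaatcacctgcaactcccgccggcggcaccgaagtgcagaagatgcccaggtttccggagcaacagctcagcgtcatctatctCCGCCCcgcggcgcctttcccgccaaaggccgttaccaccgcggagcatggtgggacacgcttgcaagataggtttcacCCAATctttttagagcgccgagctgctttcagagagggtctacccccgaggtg
*Srsf3* holds TATAAA at position -18 from the start and CCAAT on the other strand at -58, and *Srsf1* holds CCAAT at -3 and GGGCGG on the other strand at -82. Windows were found for 30 of the 31 members, 45 windows in all. GGGCGG occurred in 35 of them (77.8%), beside 35.7% of all 32851 windows in the table. CCAAT occurred in 22 (48.9%, beside 37.4%), and TATAAA in 6 (13.3%, beside 13.6%). These matches are descriptions of letters and were not tested.

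*Srsf9* and *Srsf2*, chosen after their values were seen, and *Srsf12* were the other SR genes lower in both cKO libraries. *Srsf9*, a close relative of *Srsf1*, had 8.89 and 7.61 CPM in WT 1 and WT 2 and 3.76 and 4.43 CPM in cKO 1 and 2, with a log2 fold change of -1.01 and an SE of 0.40 (edgeR's quasi-likelihood test, unadjusted p = 0.0502, Benjamini-Hochberg adjusted p = 0.582). *Srsf12*, the least abundant member, had 5.25 and 9.26 CPM in WT and 1.92 and 3.87 CPM in cKO, a log2 fold change of -1.33 (SE 0.59, unadjusted p = 0.0706). *Srsf2*, which binds exonic enhancers in many transcripts, had 364 and 267 CPM in WT and 193 and 253 CPM in cKO, a log2 fold change of -0.50 (SE 0.24, unadjusted p = 0.0832), and the gap between WT 2 and cKO 2 was small. *Srsf2* shares 460 exonic bases with *Mettl23* on the other strand, and whether the counting used strand is not given in the sources used here. The abundant *Srsf5* had 1072 and 742 CPM in WT and 1103 and 1005 CPM in cKO, with overlapping groups (log2 fold change 0.22, SE 0.21, unadjusted p = 0.352). *Srsf6* and *Srsf7* varied little, with log2 fold changes of 0.09 (SE 0.15) and -0.04 (SE 0.18), and *Srsf4*, *Srsf10* and *Srsf11* lay between -0.10 and 0.18.

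*Hnrnph1* was the member with the smallest p. It encodes a binder of G-tracts that can enhance or silence exons, and lies at chr11:50376990-50386528 (GRCm38, plus strand). Its level was 137 and 114 CPM in WT 1 and WT 2 and 221 and 173 CPM in cKO 1 and 2, with means of 126 ± 15.7 and 197 ± 34.0 (SD, n = 2). Both cKO libraries stood above both WT libraries, by 1.57-fold on average. The log2 fold change was 0.65 with an SE of 0.21 (edgeR's quasi-likelihood test, unadjusted p = 0.0251, Benjamini-Hochberg adjusted p = 0.541). The unadjusted p was 0.111 without WT 2, 0.136 without cKO 1 and 0.0738 with limma on log2(TPM + 1). Its relatives had smaller values: *Hnrnph2* had a log2 fold change of -0.26 (SE 0.25), *Hnrnph3* -0.11 (SE 0.22) and *Hnrnpf* -0.0010 (SE 0.23).

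*Hnrnpu*, a nuclear matrix protein that binds RNA and chromatin, had the lowest fold change of the hnRNP family, and 1 library set it. Its level was 925 CPM in WT 1 against 230 CPM in WT 2, 138 CPM in cKO 1 and 285 CPM in cKO 2. WT 1 stood 4.02-fold above WT 2, and WT 2 lay between the cKO libraries. The log2 fold change of -1.45 had an SE of 0.70 (edgeR's quasi-likelihood test, unadjusted p = 0.0884, Benjamini-Hochberg adjusted p = 0.639). Without WT 1 it was -0.14, and without WT 2 it was -2.13. *Hnrnpab*, a relative of the A and B type hnRNP genes, had the same order at a lower level: 35.0 CPM in WT 1, 12.5 in WT 2, 8.53 in cKO 1 and 14.5 in cKO 2, with a log2 fold change of -1.04 (SE 0.58, unadjusted p = 0.126) and of -0.14 without WT 1. Macrophage marker sums were likewise highest in WT 1, as given above, and their part in these values was not tested. *Hnrnpu* shares 804 exonic bases with *Cox20*, and *Hnrnpab* 809 with *Phykpl*, each on the other strand.

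In *Hnrnpa3*, a relative of *Hnrnpa1*, cKO 1 stood apart. Its level was 46.9 and 75.0 CPM in WT 1 and WT 2, 142 CPM in cKO 1 and 48.1 CPM in cKO 2, so the groups overlapped (log2 fold change 0.64, SE 0.55, unadjusted p = 0.289). The sign turned without cKO 1, to -0.34. *Hnrnpa2b1* was also highest in cKO 1, with 1506 and 1159 CPM in WT and 2046 and 1273 CPM in cKO (log2 fold change 0.32, SE 0.27), and had a log2 fold change of -0.06 without cKO 1. The most abundant hnRNP gene, *Hnrnpk*, had 2755 and 1985 CPM in WT and 2122 and 2497 CPM in cKO, with both cKO values between the WT values (log2 fold change -0.04, SE 0.20). The same held for *Hnrnpf*, with 944 and 615 CPM in WT and 753 and 805 CPM in cKO.

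The other hnRNP genes showed no group difference past the test. *Hnrnpa1*, *Hnrnpd* and *Hnrnpul1* were higher in both cKO libraries, with log2 fold changes of 0.22 (SE 0.23), 0.32 (SE 0.27) and 0.47 (SE 0.26). *Hnrnpc*, *Hnrnpm* and *Hnrnpr* had log2 fold changes between -0.03 and -0.0041, and *Hnrnpul2* -0.10 (SE 0.37). *Hnrnpa0* had 0.53 (SE 0.43) and *Hnrnpl*, a binder of CA repeats, 0.37 (SE 0.43), with overlapping groups in both.

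Of the helicases, *Ddx5* (chr11:106780355-106789185, minus strand) had 6034 and 5631 CPM in WT 1 and WT 2 and 6355 and 6982 CPM in cKO 1 and 2. Both cKO libraries were above both WT libraries, but by little: the log2 fold change was 0.19 with an SE of 0.12 (edgeR's quasi-likelihood test, unadjusted p = 0.167, Benjamini-Hochberg adjusted p = 0.715). It lay between 0.11 and 0.26 with each library left out in turn. *Ddx17* had 129 and 145 CPM in WT and 120 and 146 CPM in cKO, with overlapping groups and a log2 fold change of -0.04 (SE 0.20, unadjusted p = 0.861).

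**Figure D3:**
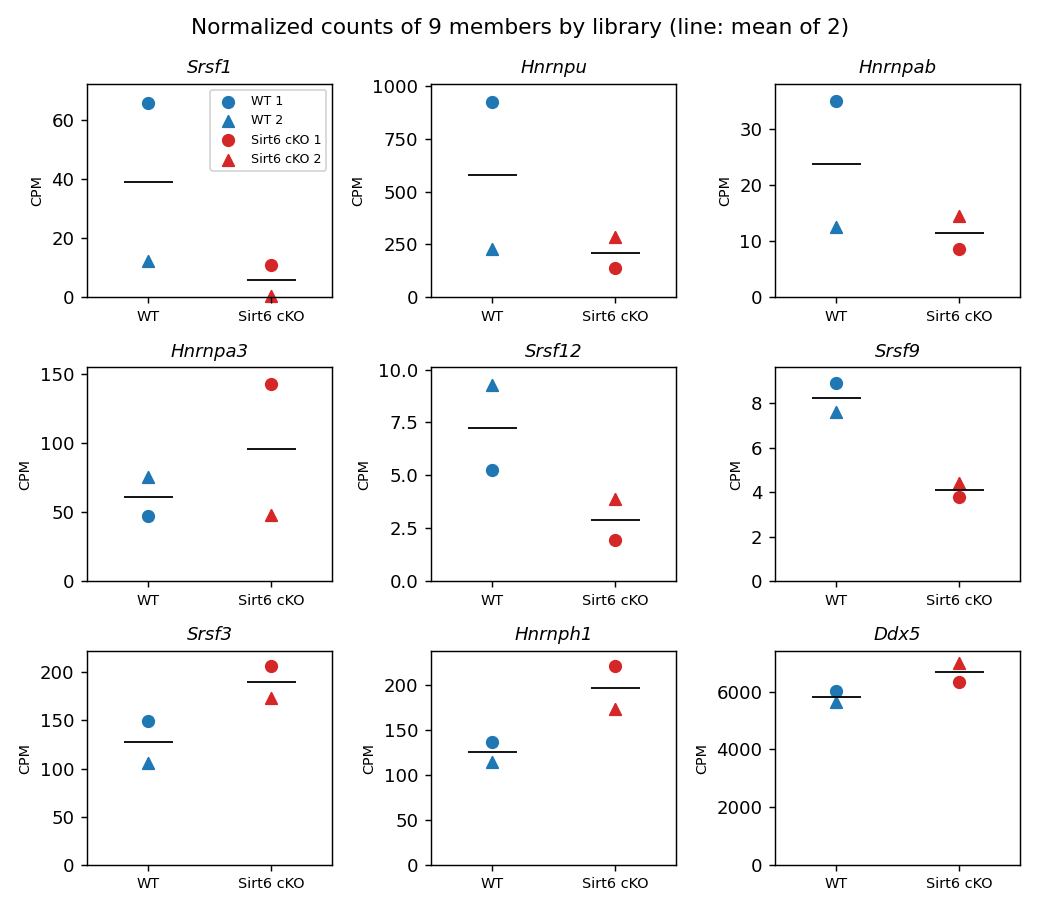
TMM-normalized CPM (vertical axes from 0) of 9 of the 31 genes in the WT (blue) and *Sirt6* cKO (red) libraries; circles and triangles are replicates 1 and 2 and lines are means of 2. WT 1 alone is high in *Srsf1*, *Hnrnpu* (925 CPM) and *Hnrnpab*, cKO 1 alone is high in *Hnrnpa3* (142 CPM), and the groups are apart but near each other in *Srsf3*, *Hnrnph1* and *Ddx5*.

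The 2 WT libraries also differed from each other in one direction across most of the family. WT 1 was above WT 2 in 26 of 31 members (83.9%), beside 51.0% of all genes tested, and cKO 1 above cKO 2 in 18 (58.1%), beside 49.7%. WT 1 had the highest level of 14 members and cKO 1 that of 13, while WT 2 had the lowest level of 18. The median deviation of the members from their mean, on the log2 CPM scale, was 0.15 in WT 1, -0.18 in WT 2, 0.07 in cKO 1 and -0.04 in cKO 2. Leaving out WT 1 moved the median log2 fold change of the members to 0.21, with 21 of 31 above 0, beside 0.04 over all genes in that fit. In the size of the difference, the median fold between the WT libraries was 1.36 in the members (1.35 over all genes tested). There 3 members differed over 2-fold (9.68%, beside 24.9%), and 4 did between the cKO libraries (12.9%, beside 22.0%). All genes tested were not matched to the members in level, so these values do not compare spread at like abundance.

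The ratio of counts to TPM gave a second readout, since for a given gene it follows the mean length of the transcripts to which the authors' quantification assigned its reads. It was scaled to bases with 1248 genes that have 1 annotated transcript, of which between 77.5% and 77.7% had an implied length within 10% of the annotated one, so closer agreement with an annotated length identifies no transcript. Many SR and hnRNP genes are known to control their own output through retained introns or poison exons that lead to nonsense-mediated decay, and GENCODE M21 annotates a retained-intron transcript for 21 of the members and a transcript subject to nonsense-mediated decay for 18. No member passed the test of a group difference in this ratio (limma, 0 of 31 at a Benjamini-Hochberg adjusted p under 0.05, beside 0.0555% of 16209 genes). At an unadjusted p under 0.05 were 2 members (6.45%), *Hnrnpab* and *Srsf12*, with log2 differences of 0.0091 and 0.0046. The share of all genes at that unadjusted p is not given here, so this count has no background beside it. The ratio varied little over the 4 libraries, with a log2 range under 0.02, in 22 members (71.0%), beside 84.8% of all genes. The implied length of *Hnrnpk* was 1979 bases in every library, and that of *Hnrnpu* 3672 bases. Where the quantification held a fixed length for a gene, its ratio could not vary. Not all of the 22 had a fixed length, as that of *Srsf10* ran from 2849 to 2885 bases. For the 22 members no conclusion on transcript forms is drawn from the ratio.

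Of the other 9 members, *Hnrnpa3* had the widest log2 range, 0.42, followed by *Hnrnpa2b1* (0.0928), *Ddx17* (0.051), *Srsf1* (0.0458), *Hnrnpf* (0.0405) and *Srsf3* (0.0337). Its implied mean length was 4535 and 4776 bases in WT 1 and WT 2, 4396 bases in cKO 1 and 3556 bases in cKO 2. The lengths lie between its longest annotated coding transcript of 5150 bases and the next of 1734 bases, and the low value belonged to cKO 2 alone (group difference -0.24 on the log2 scale, SE 0.13, limma's unadjusted p = 0.181). In *Hnrnpa2b1* the implied length was 3281, 3309, 3502 and 3322 bases in WT 1, WT 2, cKO 1 and cKO 2, highest in the library where the gene was highest. These lengths exceed the longest annotated coding transcript of 1728 bases and come near a retained-intron transcript of 3645 bases. The annotation the authors counted with is not given in the sources used here, so the form cannot be named. *Srsf3* was between 2863 and 2930 bases, beside a coding transcript of 2618 and retained-intron transcripts of 2836 and 4010 bases. *Srsf1* was between 5189 and 5357 bases, near its longest coding transcript of 5362 bases, also in cKO 2, where the gene was nearly absent. The highest of these values was that of cKO 2, from 23 counts, so the range of *Srsf1* is uncertain.

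**Figure D4:**
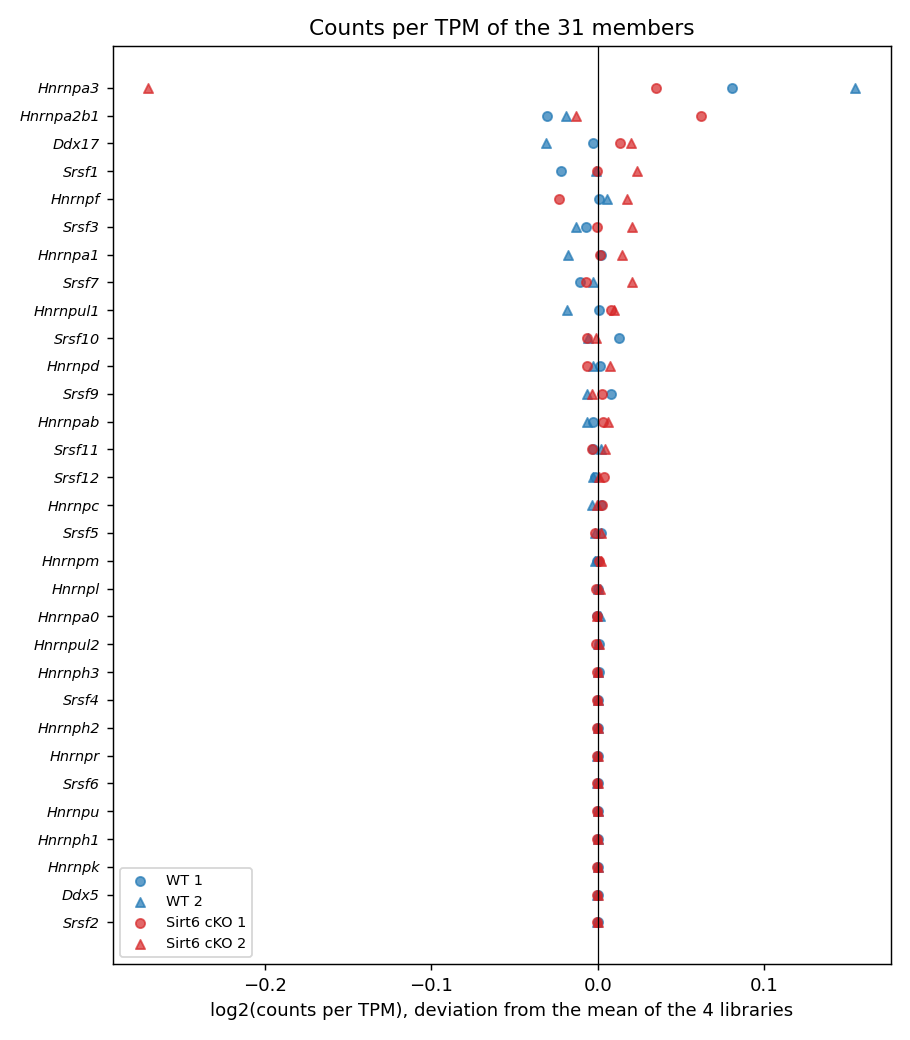
log2 of counts per TPM of the 31 genes in each library, as the deviation from the mean of the 4 libraries (horizontal axis), ordered by range; colours and symbols as in the plot of levels. Most genes lie on or near 0, and *Hnrnpa3* spreads over a log2 range of 0.42 with *Sirt6* cKO 2 lowest.

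The wider splicing machinery was described with 4 lists of 164 tested genes. Of these, 6 were higher (3.66%) and 3 lower (1.83%) in cKO at an unadjusted p under 0.05, beside 5.27% and 3.32% of all genes tested, and none passed the Benjamini-Hochberg adjusted p of 0.05 in edgeR. DESeq2 gave 18 (11.0%) at an unadjusted p under 0.05, beside 10.2% of all genes it tested. The median log2 fold change was 0.13 over the 4 lists, with 105 genes above 0 and 59 below. Over all genes tested it was -0.0047, with 9204 above and 9343 below. That median over all genes was -0.0861 under upper quartile scaling and -0.0932 under library size alone, so values of this size depend on the scaling. The median of the lists under those scalings is not given here. In the core spliceosome (67 genes, median 0.09) 1 gene was higher and 1 lower, in the kinases and relatives of SR proteins (28 genes, median 0.16) none, among other splicing regulators (57 genes, median 0.13) 4 and 1, and among factors of nonsense-mediated decay (12 genes, median 0.29) 1 and 1.

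*Rbm20*, a repressor of exons best known from titin in muscle, had the smallest p of the higher genes. It had 8.83 and 14.9 CPM in WT 1 and WT 2 and 33.8 and 39.2 CPM in cKO 1 and 2, a log2 fold change of 1.62 (SE 0.36, edgeR's unadjusted p = 0.0052, Benjamini-Hochberg adjusted p = 0.541). *Ptbp2*, the neuronal polypyrimidine tract binding protein, had a log2 fold change of 0.90 (SE 0.30), *Dhx34*, a helicase of nonsense-mediated decay, 0.93 (SE 0.25), *Prpf6*, a protein of the tri-snRNP, 0.50 (SE 0.18), and *Pcbp4*, a poly(C) binding protein, 0.73 (SE 0.26). The remaining higher gene was *Ptbp1* (0.48, SE 0.18), a widely expressed exon repressor, named after its value was seen. *Celf4*, a CUG-binding regulator, was lower (-1.89, SE 0.59), as were the translation termination factor *Gspt1* (-1.07, SE 0.39) and *U2af1l4*, a relative of U2AF (-0.60, SE 0.24). For *Gspt1* WT 1 stood apart, with 110 CPM against 56.1, 33.8 and 45.4 CPM in WT 2, cKO 1 and cKO 2, and the log2 fold change was -0.53 (unadjusted p = 0.186) without it. *Hnrpdl* had a log2 fold change of 0.14 (SE 0.22), and *Hnrpll* had 59.4 CPM in WT 1, 22.3 in WT 2, 12.1 in cKO 1 and 35.7 in cKO 2, with overlapping groups, highest again in WT 1.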

How the data were processed

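The members and gene lists were chosen with earlier results of these data known. Per the submitters' processing notes and the paper, the authors aligned reads to mm10 with HISAT2 2.1.0 and quantified genes with StringTie 1.3.3. The annotation and the use of strand are not given in the sources used here. The deposited counts were whole numbers, not normalized. The deposited TPM values, one table per library, held 1 line with the column total, which was left out.

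Counts were tested with edgeR 4.0.16 in R 4.3.3 (filterByExpr at minimum count 10 and total 15, TMM, quasi-likelihood test, Benjamini-Hochberg adjustment over 18547 genes, threshold 0.05), without a replicate block. CPM used the TMM factors (0.966 to 1.04). Counts per TPM were tested with limma 3.58.1. The procedure was run on simulated data with a fixed spread that was not matched to these data, so that run does not show how the tests perform here. Alternatives were DESeq2 1.42.0, other filters and scalings, limma on TPM with pseudocounts 1 and 0.1, a replicate block and each library left out. Positions, transcripts and shared 50-base words came from GENCODE M21 on GRCm38, and promoters from RefSeq (GRCm38.p6).

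Full values are given for members with an unadjusted p under 0.05, the 5 highest in TPM, *Ddx5*, *Ddx17*, *Srsf3* and members differing over 2-fold between libraries of a group. For the wider lists, up to 5 genes per direction with the smallest p are named. Other genes are summarised, or are said in the text to have been picked on their values. B cell markers summed to 162 to 244 TPM, fibroblast and endothelial markers to 89.5 to 108 TPM, tuft cell markers to 163 and 190 TPM in WT and 121 and 113 TPM in cKO, and nuclear RNAs to 400 to 625 TPM.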

Additional observations from a re-analysis of the deposited data

How the results depend on the processing

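No member passed an adjusted p of 0.05 under the alternatives that kept 2 libraries in each group (edgeR, DESeq2 and limma, Benjamini-Hochberg). Of these only DESeq2, with 354, called more than 2 genes over the whole table. In the others a count of 0 members was nearly fixed in advance. For counts per TPM no member passed with a minimum count of 100 or with a replicate block. Over all genes these called 12 of 13496 and 0 of 16209. Counts at an unadjusted p under 0.05, in edgeR 1 member higher, 0 lower and 9 genes of the 4 splicing lists, depended on the setting. DESeq2 gave 2 higher, 2 lower and 18 genes, limma on log2(TPM + 1) gave 0, 2 and 4, and limma on log2(TPM + 0.1) gave 0, 1 and 4. Upper quartile normalization gave 1 lower and library size alone 2. The counts over all genes moved too. DESeq2 gave 1217 higher and 920 lower of 20997, and edgeR 977 and 615 of 18547. Of the same 18547, limma on log2(TPM + 1) gave 783 and 846, and limma on log2(TPM + 0.1) gave 701 and 806. Upper quartile normalization gave 751 and 800, and library size alone 721 and 838. With each library left out they ran from 0 to 3, from 1 to 3 and from 3 to 19. By library, 2 were higher and 1 lower without WT 1, 0 and 3 without WT 2, 0 and 1 without cKO 1, and 3 and 2 without cKO 2. The median log2 fold change of the members then ran from -0.15 to 0.21, the latter without WT 1. Over all genes DESeq2 called 354 at an adjusted p under 0.05 where edgeR called 1.

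Libraries of the same replicate number did not deviate together over the genes tested (correlation of same-numbered deviations -0.05). This cannot show whether animals or sorts were paired. With the replicate number as a block, 2 members were higher (*Hnrnph1* and *Srsf3*) and 2 lower (*Srsf1* and *Srsf12*) at an unadjusted p under 0.05. Over all 18547 genes 697 were higher and 449 lower in that fit. No member passed the adjusted p, and *Hnrnpf* had a log2 fold change of 0.031.

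The sign turned for *Hnrnpf* with TPM (0.0278 with each pseudocount) and with a library left out (-0.28 to 0.32). Leaving out libraries turned the sign of 14 of the 31 members, *Hnrnpf* included, among them *Hnrnpk* (-0.25 to 0.19), *Ddx17* (-0.20 to 0.10), *Srsf5* (-0.0241 to 0.48), *Hnrnpa2b1* (-0.063 to 0.60) and *Hnrnpa3* (-0.34 to 1.20). The others were *Hnrnpc*, *Hnrnph3*, *Hnrnpm*, *Hnrnpr*, *Hnrnpul2*, *Srsf7*, *Srsf10* and *Srsf11*. *Hnrpll* turned as well (-1.76 to 0.0791). The cause was not tested. At 61102704 counts or more per library, depth limited only the lowest values, such as the 23 counts of *Srsf1* in cKO 2.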

Other observations

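Within a library, levels of partner genes can be set side by side in TPM. *Ddx5* was 59.7-fold and 48.6-fold above its paralog *Ddx17* in WT 1 and WT 2 and 67.9-fold and 61.8-fold above it in cKO 1 and 2. *Hnrnph1* was 1.22-fold and 1.45-fold above its close relative *Hnrnph2* in the WT libraries, and 2.93-fold and 2.06-fold above it in the cKO libraries, so the ratio was higher in both cKO libraries. The ratio of *Srsf1* to *Hnrnpa1*, whose proteins compete in the choice of splice sites, was 0.331 in WT 1, 0.0766 in WT 2, 0.0518 in cKO 1 and 0.00173 in cKO 2. These ratios were chosen after the values were seen and were not tested. In *Hnrnpa1*, 46.4% of the 50-base words are shared with other genes.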
